A study of Mus musculus with 8 samples.

Results

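The 4 vehicle libraries of the series, of 8 in all, give the resting expression profile of mouse cornea after the adrenal source of glucocorticoids has been removed. They were chosen by their treatment label alone, and no value was used to choose them. The mice were wild-type C57BL/6J males whose adrenal glands were taken out at 8 weeks of age. About 4 weeks later they received vehicle eye drops, and whole corneas were collected at 6 h. Each library holds total RNA from 4 to 6 pooled corneas, and the labels do not say how many mice stand behind a pool, so the spread between libraries is a spread between pools. Every animal lacked its adrenals and no intact or sham-operated animal is described here, so a level below belongs to the adrenalectomized cornea and says nothing about what the surgery changed. The values are the authors' log2 normalized values for 24918 rows, each a gene. The read total of single libraries is unknown and no counting interval can be given.

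The cornea is the clear front wall of the eye. A layered epithelium that renews itself from the limbus at its rim covers a collagenous stroma, which flattened keratocytes build and maintain, and a single inner layer of endothelial cells pumps fluid out of the stroma to keep it clear. The healthy tissue has dense sensory nerves with their Schwann cells and a resident population of macrophages and dendritic cells, and its centre has no blood or lymphatic vessels. Glucocorticoids act through the receptor encoded by Nr3c1, are activated in tissues by 11-beta-hydroxysteroid dehydrogenase type 1 and are inactivated by the type 2 enzyme. Because the RNA comes from whole tissue, fewer cells of a type and less RNA per cell cannot be told apart.

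4 promoters are shown first, because their genes carry the main results below: Krt12 and Krt5, the keratin pair with the highest levels, and Sprr1a and Epgn, which separated one pool from the others. Each sequence is the 150 bases before the annotated start, read 5′ to 3′ on the gene's strand, from RefSeq on GRCm38.p6. Krt12 lies at chr11:99422260-99422409 on the minus strand, Krt5 at chr15:101712906-101713055 on the minus strand, Sprr1a at chr3:92485882-92486031 on the minus strand and Epgn at chr5:91027367-91027516 on the plus strand. Capitals mark TATAAA, the letters of a TATA box, and TGANTCA, the letters bound by AP-1 factors, both searched on both strands.
Krt12: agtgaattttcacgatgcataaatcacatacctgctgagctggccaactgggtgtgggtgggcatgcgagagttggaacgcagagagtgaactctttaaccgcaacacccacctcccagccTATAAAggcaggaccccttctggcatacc
Krt5: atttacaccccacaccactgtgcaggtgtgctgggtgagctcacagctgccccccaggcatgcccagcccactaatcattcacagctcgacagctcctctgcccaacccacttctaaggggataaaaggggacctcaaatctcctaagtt
Sprr1a: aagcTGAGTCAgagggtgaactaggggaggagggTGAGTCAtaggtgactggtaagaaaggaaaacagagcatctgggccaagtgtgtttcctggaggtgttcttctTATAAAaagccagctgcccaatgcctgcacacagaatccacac
Epgn: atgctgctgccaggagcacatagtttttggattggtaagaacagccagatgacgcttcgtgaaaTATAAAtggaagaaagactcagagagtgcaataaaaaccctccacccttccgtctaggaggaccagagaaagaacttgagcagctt
In Krt12 the TATAAA began 29 bases before the start, in Sprr1a 43 bases and in Epgn 86 bases, and neither motif is spelled in the Krt5 window. The Sprr1a window holds TGANTCA 146 and 116 bases before the start. TATAAA was found in 8.08% and TGANTCA in 4.27% of the same windows of all 27025 genes with a promoter in the table. Among the 25 genes of highest level 14 had a promoter in the table, of which 4 held TATAAA and 1 held TGANTCA. Among the 20 genes of largest spread between pools 14 had one, of which 4 held TATAAA and 2 held TGANTCA. A match describes letters in a window and does not show that a factor binds there. Aldh3a1, Krt6a, Krt16 and Krt17 had no entry.

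The pools were compared with one another before the levels were read. Vehicle replicate 3 stood apart from replicates 1, 2 and 4 on the first principal component, which held 65.7% of the variance between pools, with a score of 10.9 against -4.05, -3.64 and -3.22. On the second component, with 20.8% of the variance, replicate 1 scored 5.62 and replicate 2 lay at the other end, at -3.80. On the third, with 13.5%, replicates 4 and 2 lay at opposite ends, at 4.44 and -3.52. Between pairs of pools the median absolute difference per row was small, at 0.0376 for replicates 2 and 4 and 0.0578 for replicates 1 and 3 on the log2 scale. The labelled sex was checked with the Y-linked genes. Ddx3y, a Y-linked RNA helicase gene, had log2 values of 10.46, 10.26, 10.42 and 10.18 in replicates 1 to 4, and Kdm5d, a Y-linked histone demethylase gene, had 8.97, 8.95, 9.04 and 8.97. Xist, the RNA that coats the inactive X chromosome of female cells, nevertheless had 9.29, 9.29, 9.24 and 9.26, and 11.2% of its exon bases overlap exons of its antisense gene Tsix, whose reads cannot be separated without a stated strand setting. The source of the Xist level was not tested.

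Of the 24918 rows, 5078 were listed at 0 in all 4 libraries and 2837 had a mean below 0. Another 2292 lay between 0 and 3, 3872 between 3 and 7, 8246 between 7 and 11, and 2593 at 11 or over. A mean of at least 3 was reached by 59% of rows, 14711 in number, and a mean of at least 7 by 43.5%. Among the 14711 rows the median log2 value was 8.87, with quartiles of 6.84 and 10.45. The highest row reached 19.74. The median SD between libraries was 0.041 at means of 3 to 7, 0.0499 at means of 7 to 11 and 0.0439 at means of 11 or over, so low rows did not vary more than high ones. The transformation is not stated, and differences of weakly expressed genes may be understated. A row listed at 0 is given only as such: Rpl26, a ribosomal protein gene that every cell uses, was also listed at 0, so a 0 can be a row to which no reads were assigned. A value below 3 is called the floor of the table.

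The list of highest rows was led by epithelial genes. Krt12 (Entrez 268482; mm9 chromosome 11, 99276980 to 99283573), the acidic keratin specific to corneal epithelium, was the highest row, with log2 values of 19.74, 19.74, 19.77 and 19.73 in replicates 1 to 4. The 4 pools spanned a range of 0.04. Krt12 alone held 3.60% ± 0.006 (SD, n = 4) of the summed linear values, that is of 2 raised to each log2 value. Of its exon bases 54.1% overlap exons of an antisense gene in the annotation, A830036E02Rik, and without a stated strand setting reads of the pair cannot be told apart.

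Krt5 (Entrez 110308; mm9 chromosome 15, 101537501 to 101543322), the basic keratin of stratified epithelia and a filament partner of acidic keratins, had log2 values of 18.77, 18.81, 18.79 and 18.82. Aldh3a1 (Entrez 11670; mm9 chromosome 11, 61021039 to 61031923), an aldehyde dehydrogenase so abundant in mammalian cornea that it is called a corneal crystallin, had 18.67, 18.79, 18.74 and 18.73. Both genes had nearly the same value in every pool. Together the first 3 rows held 7.24% ± 0.09 of the summed linear values, the first 10 held 12.1% ± 0.14, the first 100 held 27.4% ± 0.18 and the first 1000 held 55.7% ± 0.11 (SD, n = 4). Of all rows 713 were enough to reach 50%.

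Behind these came Emp1, an epithelial membrane protein gene, at 17.88 ± 0.05 (SD, n = 4), and Gsto1, an omega-class glutathione transferase gene, at 17.79 ± 0.02. Tkt, the pentose phosphate enzyme transketolase and another corneal crystallin, had 17.30 ± 0.05. The type I collagen genes Col1a1 and Col1a2 had 17.28 ± 0.03 and 16.99 ± 0.02, and were the highest stromal rows by deposited value. A2m, which encodes a broad protease inhibitor, had 17.17 ± 0.05. The rest of the 25 highest rows, at 15.89 to 16.96, were mostly epithelial structure. They included Actn4, an actin-bundling protein gene, Col17a1, the collagen of hemidesmosomes, and the cornified envelope and desmosome genes Evpl, Ppl and Dsp. They also included the aquaporin gene Aqp5, the proteolipid gene Mal, the membrane mucin gene Muc4, the keratin genes Krt6a, Krt6b and Krt15, the protease gene Asprv1 and the calmodulin-like gene Calml3. Dcn, the stromal proteoglycan decorin, the nuclear long non-coding RNA Neat1 and the translation elongation factor gene Eef2 completed the set.

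**Figure D1:**
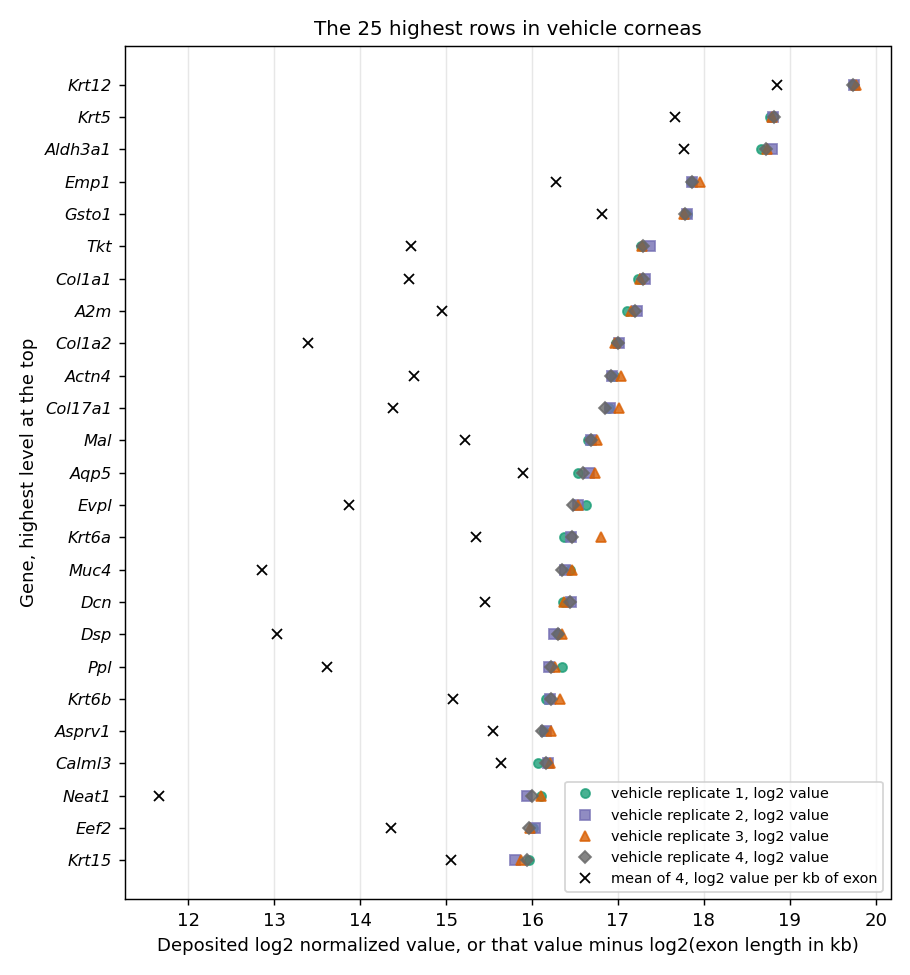
Log2 normalized value of the 25 highest rows in each of the 4 vehicle libraries (coloured symbols, horizontal axis in log2 units) and the mean after subtracting log2 of the exon length in kb (crosses). The 4 pools nearly coincide for each gene, and correction for length moves long genes such as Neat1, Muc4 and Dsp to the left of short ones.

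Levels of different genes are compared per kb of exon, as the log2 value minus log2 of the exon length. On this scale Krt12 had 18.85, and it exceeded Aldh3a1 by 1.07 ± 0.05 (SD, n = 4), more than the spread of either gene. Aldh3a1, at 17.77 per kb, now stood above Krt5, at 17.67 per kb, by 0.11 ± 0.04, and did so in 4 of 4 libraries. Gsto1 followed at 16.81, Emp1 at 16.28, Aqp5 at 15.89 and Calml3 at 15.64 per kb. From there the order was not firm. Asprv1 at 15.55 and Gsta4, an alpha-class glutathione transferase gene, at 15.53 differed by 0.02 ± 0.04, and Krt6b at 15.07, Krt15 at 15.06 and S100a6 at 15.05 differed by less than their SDs. Dcn, at 15.45 per kb, was the highest stromal gene on this scale, with 0.10 ± 0.21 to Krt6a. Tmsb4x, an actin-sequestering peptide gene, had 15.15 per kb.

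Keratins held 6.76% ± 0.07 (SD, n = 4) of the summed linear values, and 12 of their 52 rows reached 11. Per kb, the acidic type I keratins summed to 1.81 ± 0.03 (SD, n = 4) times the basic type II keratins, with ratios of 1.86, 1.80, 1.79 and 1.79 in replicates 1 to 4. Krt12 made up 88.5% ± 0.66 of the type I sum. Krt15, a marker of basal and limbal cells, made up 6.40% ± 0.36, Krt13 3.50% ± 0.14 and Krt14 1.08% ± 0.39. Krt5 made up 70.6% ± 1.74 of the type II sum, Krt6a 14.2% ± 1.59 and Krt6b 11.7% ± 0.24. In replicate 3 Krt6a reached 16.6% of the type II sum and Krt14 1.67% of the type I sum, each the highest of the 4 pools. Mucins, the glycoproteins that hold the tear film, had 10 rows and 0.479% ± 0.013 of the summed linear values. Muc4 had a log2 value of 16.41 ± 0.05 and Muc20 14.59 ± 0.04, whereas the gel-forming mucins Muc5ac and Muc5b stood at -0.55 and 1.25. Muc16 had no row in the table.

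All 17 genes of the differentiated epithelium list had a log2 value of at least 3 and 16 of at least 7, against 59% and 43.5% of all rows, and their median was 14.98 ± 0.04 (SD over pools, n = 4) as a log2 value and 14.38 per kb. Upk1b, a uroplakin of the apical membrane, had 14.98 ± 0.04. Lypd2 and Lypd3, members of the Ly6 family of surface proteins, had 13.57 ± 0.02 and 12.90 ± 0.20. Ly6d, of the same family, had only 3.56 ± 0.04. The tight junction gene Cldn4 had 12.54 ± 0.06, and all 20 junction genes of a separate list lay at 7 or over, with a median log2 value of 13.47. Desmosomal parts led that list also per kb, with Jup, which encodes plakoglobin, at 13.07, Dsp at 13.04, the plakophilin gene Pkp1 at 12.76 and Dsc2 at 12.75 per kb. The gap junction genes Gja1 and Gjb6 had 12.16 and 6.33 per kb.

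The transcription factors of corneal epithelium were at middle to high levels. Klf4, a Kruppel-like factor of barrier epithelia, had a log2 value of 15.02 ± 0.09, Elf3 and Ehf, ETS-family factors, had 14.56 ± 0.03 and 14.02 ± 0.05, and Pax6, the master regulator of eye identity, had 14.35 ± 0.07 (SD, n = 4). Per kb Elf3 had 13.56, Klf4 13.41, Ehf 11.54 and Pax6 10.04. The exon length of Pax6 was 19833 bases and its longest coding transcript 8401, a length that would give a higher value per kb. In Pax6 the pools had log2 values of 14.34, 14.39, 14.26 and 14.41. Grhl1, Grhl3, Tfap2a and Klf5 lay between 11.60 and 12.52. Six3, a factor of the developing lens and forebrain, stood at 3.12, close to the floor.

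The basal layer and its anchorage to the stroma were as well represented and less even. All 14 genes of this list had a value of at least 7, against 43.5% of all rows. Their median log2 value was 13.37 ± 0.28 (SD over pools, n = 4) and 10.32 per kb. Without replicate 3 the median log2 value was 13.23 ± 0.04 (SD over pools, n = 3). Krt14, the acidic keratin of basal cells in most stratified epithelia, had log2 values of 12.93, 12.98, 13.97 and 13.11, with replicate 3 high and the other 3 close together. Per kb Krt14 had 12.44, far under Krt5 with 17.67, the basic keratin it pairs with in skin. The genes of the integrin that forms hemidesmosomes, Itga6 and Itgb4, had 13.82 ± 0.23 and 13.95 ± 0.16. Trp63, the transcription factor of stratified epithelial progenitors, had 13.36, 13.27, 13.35 and 13.29, and the EGF receptor gene Egfr had 12.27, 12.27, 12.27 and 12.24, so these basal genes did not set replicate 3 apart.

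Genes used as limbal and progenitor markers varied widely in level. Krt15 had a log2 value of 15.89 ± 0.08 and Lrig1, an inhibitor of EGF receptor signalling, 13.32 ± 0.05. Gpha2, a glycoprotein hormone subunit reported in limbal stem cells, had 7.74 ± 0.08 and the transporter gene Abcg2 9.26 ± 0.07. Another transporter gene, Abcb5, stood at -2.47 in every library. Of the 12 genes 10 had a value of at least 3, against 59% of all rows. All 12 genes of the dividing cell list lay at 7 or over, against 43.5% of all rows. Replicate 1 and replicate 4 were each highest for 5 of them, where they were highest for 25.3% and 21.3% of the 14711 rows. The list includes Mki67, a nuclear protein of cycling cells, at 11.32, 11.13, 11.11 and 11.28, Top2a, a DNA topoisomerase gene, at 10.93 ± 0.10 and Ccna2, a cyclin gene, at 10.15 ± 0.08.

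The list of corneal crystallin enzymes and antioxidants had a median log2 value of 11.16 ± 0.03 (SD over pools, n = 4), with Aldh3a1 and Tkt highest. Next came Prdx6, a peroxiredoxin gene, at 13.63 ± 0.05, Clu, the extracellular chaperone clusterin, at 13.62 ± 0.03 and Aldh1a1, another corneal crystallin enzyme, at 13.34 ± 0.10 (SD, n = 4). The glycolytic genes Gapdh, Pgk1 and Eno1 stood at only 7.57, 7.95 and 2.10. These low values are uncertain: 88.2%, 95.7% and 85.6% of their transcripts match other places in mm9 at 97% identity or more over at least 200 bases, with 37 such places for Gapdh. The same limit holds for the antioxidant genes Sod1 and Gstp1, at 8.42 and 8.26, with 94.7% and 93.4% of their transcripts in such copies. Of 513 described genes with a transcript sequence 476 had no such copy and 15 had one over at least 50% of the transcript. Of 82 ribosomal protein genes with a transcript, the 48 with at least 50% in copies had a median log2 value of 7.75 and the others 9.29.

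The stroma was strongly represented as well. Stromal collagen and matrix genes had a median log2 value of 14.34 ± 0.02 (SD over pools, n = 4), and 10.97 per kb. All 14 lay at 7 or over, against 43.5% of all rows. Collagens as a family had 44 rows, of which 18 reached 11, and held 2.58% ± 0.04 of the summed linear values. Sparc, a collagen-binding matrix protein gene, had 15.12 ± 0.06, and 13.37 per kb, where Col1a2 had 13.39. How close these 2 genes stand depends on the length used. The exon length was 12145 bases for Col1a2 and 3367 for Sparc, and the longest coding transcript 5347 and 2300. Col6a1, a chain of the beaded type VI collagen, had 15.06 ± 0.05. Col12a1, a collagen of the fibril surface, had 14.94 ± 0.03. Col5a1 and Col5a2, which limit fibril diameter, had 13.64 ± 0.01 and 14.18 ± 0.03. Col3a1, the collagen of skin and vessel walls, was lower at 10.81, 10.45, 10.60 and 10.88, and per kb it stood at 7.61 against 14.56 for Col1a1.

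Keratocyte genes had a median log2 value of 10.58 ± 0.04. Of 17 genes 17 lay at 3 or over and 15 at 7 or over, against 59% and 43.5% of all rows. The small leucine-rich proteoglycans that space collagen fibrils were among the highest, with Dcn at 16.41 ± 0.05, Kera, the keratan sulfate core protein keratocan, at 14.67 ± 0.03, Bgn at 14.57 ± 0.07 and Lum, lumican, at 14.01 ± 0.03. Kera had 14.64, 14.71, 14.67 and 14.68 in the 4 pools. Per kb the order was Dcn at 15.45, Angptl7 at 14.70, Kera at 13.69, Lum at 12.96 and Bgn at 12.74. Angptl7, a secreted angiopoietin-like protein gene, had a log2 value of 15.81 ± 0.10 and is shared by the keratocyte and trabecular lists. Aspn, a proteoglycan of other connective tissues, had 7.15 ± 0.18. The keratan sulfate sulfotransferase gene Chst5 had 10.45 ± 0.07 and Chst1 4.04 ± 0.03. Thy1, a marker of activated fibroblasts, had 5.20 ± 0.02, and Chst6 had no row.

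Endothelial genes of the inner corneal surface were present at a median log2 value of 11.80 ± 0.05. Of 17 genes 17 lay at 3 or over and 15 at 7 or over, against 59% and 43.5% of all rows. Col8a2, a collagen of the Descemet membrane, had 14.27, 14.34, 14.23 and 14.34, and its partner Col8a1 had 12.31 ± 0.06. Slc4a11, a membrane transporter mutated in human endothelial dystrophy, had 12.83 ± 0.07. Aqp1, the water channel of endothelium and keratocytes, had 14.09 ± 0.10. Cdh2, N-cadherin, had 8.97 ± 0.08, and per kb it stood at 5.96, against 11.44 for the epithelial cadherin gene Cdh1. The size of this gap is uncertain. The exon length of Cdh2 was 8066 bases and its longest coding transcript 4843, of which 34.0% matches another place in mm9. For Cdh1 the lengths were 4574 and 4430 bases, with no such copy. Car2, a carbonic anhydrase gene, had 4.20. Many of these genes are also used by the other corneal layers or by vessels, so the list does not measure the endothelium alone.

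**Figure D2:**
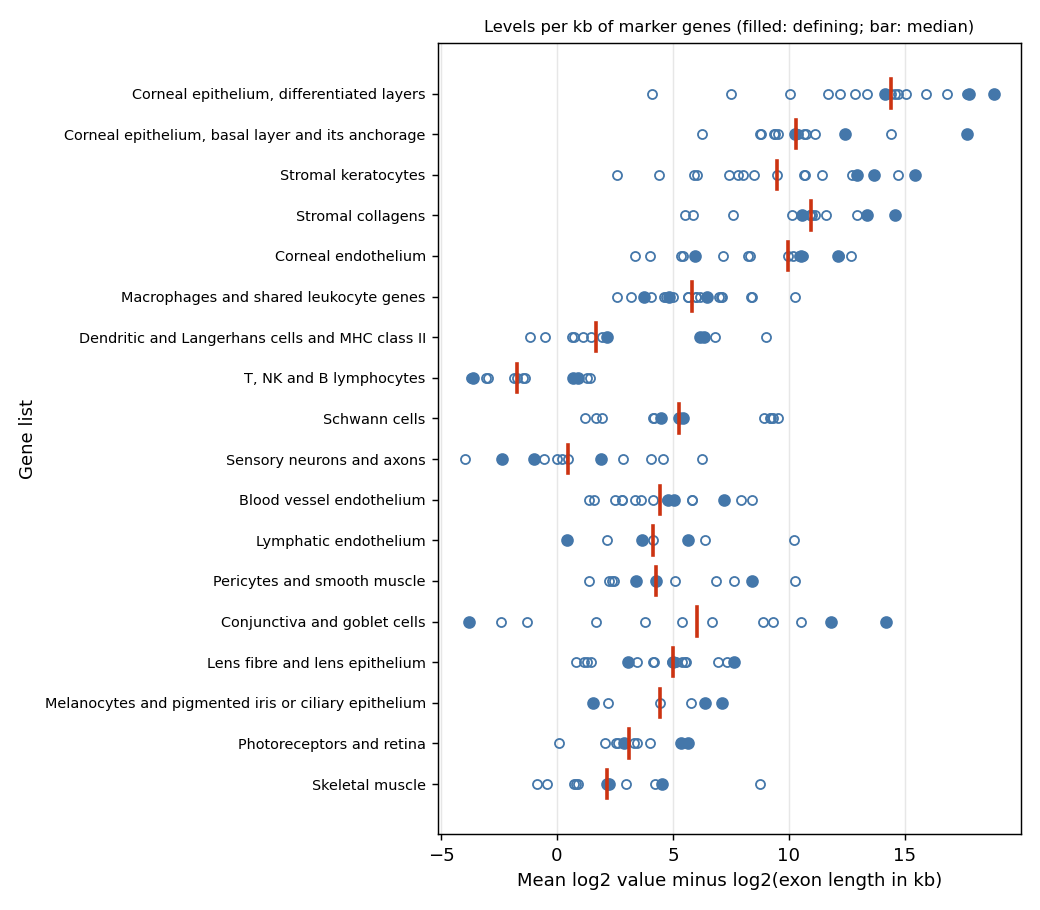
Mean log2 value per kb of exon (horizontal axis, 4 vehicle libraries) of each marker gene, by gene list. Filled points are the 3 defining genes of a list and red bars the median, and genes listed at 0 or without a length are left out. Epithelial, stromal and corneal endothelial lists lie to the right of the immune, nerve and vessel lists, with single genes far from their list.

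Among immune genes those of the macrophage list lay mostly at low to middle levels. In the other immune lists 8 of 13 dendritic, 2 of 9 neutrophil, 2 of 8 mast cell and 1 of 13 lymphoid rows reached 3. All 20 macrophage and shared leukocyte genes had a log2 value of at least 3 and 10 of at least 7, against 59% and 43.5% of all rows. Their median was 6.94 ± 0.03 (SD over pools, n = 4) and 5.84 per kb. Csf1r, the receptor that sustains macrophages, had 8.87, 8.87, 8.77 and 8.88. Cx3cr1, the receptor of resident macrophages for fractalkine, had 6.73 ± 0.05, Mrc1, a mannose receptor, 8.59 ± 0.05, and the pan-leukocyte phosphatase gene Ptprc 6.32 ± 0.12. The complement genes C1qa, C1qb and C1qc had 7.03, 7.22 and 7.10. Itgam, an integrin chain of myeloid cells, had 12.98, 12.93, 12.94 and 12.92, and per kb it stood at 10.27, whereas Lyz2, a lysozyme gene and the next of the list per kb, stood at 8.41. No annotated exon of another gene overlaps Itgam, and the source of its level was not tested.

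Of 13 dendritic cell genes 8 had a log2 value of at least 3, close to the 59% of all rows. The MHC class II genes H2-Aa, H2-Ab1 and H2-Eb1 had log2 values of 7.17 ± 0.14, 7.05 ± 0.13 and 7.08 ± 0.13 and the invariant chain gene Cd74 9.51 ± 0.11. Itgax, the CD11c chain, had 4.17 ± 0.06, and Cd207, the langerin gene of Langerhans cells, stood at 1.27. T, NK and B lymphocyte genes had a median of -1.35. Cd3e stood at 1.21, Cd3d at -3.19 and Cd79a at 1.44, and of 13 rows only Cd4, which myeloid cells also carry, reached 3, with 3.46. Trdc had no row. The neutrophil genes Mpo and Elane were listed at 0 and stood at -1.99, S100a8 stood at 1.06, and S100a9 and Csf3r had 5.68 and 4.14; Ly6g had no row. Among mast cell genes Cpa3, a mast cell protease gene, had 5.59 ± 0.04 and Fcer1a, a chain of the IgE receptor, stood at -1.74. Kit, a receptor tyrosine kinase shared with melanocytes, had 12.52 ± 0.05.

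Cytokine genes ranged over most of the scale, and 15 of 21 had a log2 value of at least 3, against 59% of all rows. Cx3cl1, which encodes fractalkine, had 10.96, 11.03, 11.04 and 10.97, and 9.11 per kb. Il1a and Il18, which epithelia store, had 9.69 ± 0.10 and 9.55 ± 0.04, and per kb Il18 was the highest of the list, at 10.06. The chemokine gene Cxcl16 had 8.44 ± 0.17. Il1b stood at 2.64, Il6 at -1.99 and Ccl2 at 1.39, at or under the floor in all 4 pools. Tnf had 6.12, 6.42, 6.24 and 6.23. Csf1 and Il34, the ligands of the Csf1r receptor, had 8.39 ± 0.03 and 7.60 ± 0.04.

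Nerve genes were read from a Schwann cell list and a sensory neuron list. All 14 Schwann genes had a log2 value of at least 3, against 59% of all rows, and their median was 6.52 ± 0.03 (SD over pools, n = 4) and 5.25 per kb. The lineage factor gene Sox10 had 5.87, 5.86, 6.00 and 5.92. Mbp, Ngfr, Erbb3 and L1cam stood higher, at 9.54, 9.31, 9.25 and 8.91 per kb against 4.47 for Sox10, and epithelial or stromal cells also use several of these genes. Of 16 sensory neuron genes 6 had at least 3, against the same 59%. Tubb3, a neuronal tubulin gene, stood at 2.82, Prph, peripherin, at -0.08 and Calca, which encodes the peptide CGRP, at -1.80. The sodium channel genes Scn9a and Scn10a were listed at 0. The neuronal cell bodies of corneal nerves lie in the trigeminal ganglion, outside the tissue collected. Piezo2, a mechanically gated channel gene, had 10.69 ± 0.02 and Gap43, a growth cone protein gene, 6.88 ± 0.02. Among factors that guide or feed axons 15 of 16 lay at 3 or over, against 59% of all rows. Sema3f had 12.78 ± 0.09, Ntn4 12.18 ± 0.05 and Sema3c 11.90 ± 0.02.

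Vessel genes were present at low levels although the corneal centre has no vessels. All 16 blood vessel genes had a log2 value of at least 3, against 59% of all rows. Only Erg, Kdr, Eng, Tie1 and Pecam1 reached 7, against 43.5% of all rows. The median of the list was 5.85 ± 0.08 and 4.46 per kb. Pecam1, an adhesion molecule of endothelium, had 7.11, 7.07, 7.15 and 7.31, and Cdh5, the endothelial cadherin, 6.72, 6.74, 6.75 and 6.87. Kdr, the main VEGF receptor, had 10.08 ± 0.05, and Erg, an endothelial transcription factor, 10.19 ± 0.07. Replicate 4 was highest for 13 of the 16 genes, where it was highest for 21.3% of the 14711 rows, by a median of 0.10 on the log2 scale. Of 8 lymphatic genes 6 had at least 3, against 59% of all rows. Prox1, the factor that sets lymphatic identity, stood at 2.50, Ccl21a was listed at 0 but its symbol has 2 loci, and Lyve1, which macrophages also carry, had 7.03 ± 0.09. Among mural genes Rgs5 and Cspg4 had 6.48 and 6.44 and Notch3 13.29.

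The 4 highest of 17 genes that act on vessel growth all encode inhibitors of it. Timp3, a metalloprotease inhibitor gene, had a log2 value of 14.02 ± 0.08, Thbs1 and Thbs2, the thrombospondins, had 13.54 ± 0.07 and 13.06 ± 0.03, and Serpinf1, which encodes PEDF, had 13.30 ± 0.07, where the median of the list was 7.43. Per kb Serpinf1 had 12.06, Thbs1 10.94 and Thbs2 10.50. Vegfa had 9.82, 9.62, 10.65 and 9.87, with replicate 3 high, and 7.89 per kb. Flt1, whose soluble form binds VEGF in mouse cornea, had 4.92 ± 0.02, and the table does not separate its isoforms.

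Tissues that border the cornea were traced by their own markers. Krt13 and Krt4, keratins used as markers of conjunctiva, had log2 values of 15.05 ± 0.07 and 12.91 ± 0.17, yet the goblet cell genes Muc5ac and Tff1 stood at -0.55 and -2.34, Spdef at 2.83, and Tff3 was listed at 0. Of 13 conjunctiva genes 8 had at least 3, close to the 59% of all rows. Trabecular meshwork genes were present, with the defining gene Myoc, myocilin, at 9.64, 9.48, 9.25 and 9.83 and Mgp at 11.41 ± 0.12. Lens genes had a median of 4.77, with Crybb2 at 8.58, 8.49, 8.16 and 8.15 and Cryaa at 8.14, 7.99, 7.84 and 7.63. Pigment genes had a median of 5.09 and were led by Dct at 8.41 ± 0.08, and retinal genes a median of 4.81. Skin genes reached 7.86 for Krt1 and 7.91 for Krt10, with Lor, loricrin, at 1.69. The 4 globin genes of the red cell list were listed at 0, and Alas2 of that list had 6.76. Of the globin genes Hba-a1 and Hba-a2 are symbols with 2 loci each. As a 0 can be a row to which no reads were assigned, all 4 zeros are given only as such. The summed linear values of the lens, pigment, retina and muscle lists were 0.0056% or less of the total in every pool, against 10.3% for the differentiated epithelium list. Whether these transcripts came from adjoining tissue was not tested.

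The steroid machinery was measured after the adrenal glands had been removed. The receptor gene Nr3c1 had log2 values of 11.33, 11.31, 11.31 and 11.33, nearly identical in all pools, and the mineralocorticoid receptor gene Nr3c2 had 5.43 ± 0.03 (SD, n = 4). Per kb the values were 8.43 for Nr3c1 and 2.74 for Nr3c2. Hsd11b1, the activating dehydrogenase, had 5.01, 4.87, 4.87 and 4.89, and H6pd, the enzyme that supplies its cofactor, 10.74 ± 0.06. Hsd11b2, the inactivating enzyme, stood at -0.37, at the floor. The receptor's chaperones were abundant, with Hsp90ab1 at 15.01 ± 0.02, Fkbp4 at 11.44 ± 0.03 and Stip1 at 11.30 ± 0.06. Genes known as glucocorticoid receptor targets were well above the median of 8.87 over the 14711 rows, without correction for length. Fkbp5 had 13.73, 13.51, 13.71 and 13.53, Tsc22d3 13.01, 13.02, 13.02 and 12.96, and Per1 12.26, 12.27, 12.16 and 12.12. Esr1, an oestrogen receptor gene, had 6.38 ± 0.05.

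Genes of steroid synthesis were listed at very different levels. Star, which moves cholesterol into mitochondria, had a log2 value of 7.22 ± 0.04 and Cyp17a1, a hydroxylase of steroid synthesis, 5.87 ± 0.05, while the electron donors Fdx1 and Fdxr had 8.67 ± 0.04 and 7.57 ± 0.05. Cyp11a1, the enzyme of the first step, stood at 0.63, Cyp11b1 at -1.37 and Cyp21a1 at -0.70, and Cyp11b2, Hsd3b1 and Hsd3b2 were listed at 0. Only 4 of 14 genes of this list reached 3, against 59% of all rows, and the enzymes of the final steps to corticosterone were not among them. The ACTH receptor gene Mc2r stood at -2.45.

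The 4 pools were alike for most genes. The median SD over the 14711 rows was 0.0466 on the log2 scale, and 95% of rows had an SD of 0.114 or less. Only 29 rows, 0.197%, differed by at least 1 between their highest and lowest pool, and 147 rows, 0.999%, by at least 0.5. Without replicate 3 these counts were 4 and 20. Replicate 3 was the highest pool in 23 of the 29 rows and in 125 of the 147. A pool was called isolated where its gap to the next pool was a large enough share of the row's whole range by Dixon's ratio, which happened in 986 rows, 6.7%, where chance gives about 1 in 20. Replicate 3 was the isolated highest pool in 387 rows, 2.63%, and in 69 of the 147 rows with a range of at least 0.5. The steadiest gene at a mean of 10 or more was Rxra, a retinoid receptor gene, with 12.68 in every pool and an SD of 0.0017, followed by Ptpra and Recql.

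Keratinocyte genes of injury and stress separated replicate 3. Krt16 (Entrez 16666; mm9 chromosome 11, 100107405 to 100110276), a keratin that wounded and fast-growing epithelium makes, had log2 values of 7.43, 8.04, 11.20 and 7.69. Sprr1a (Entrez 20753; mm9 chromosome 3, 92287877 to 92289816), a cornified envelope precursor, had 8.02, 8.27, 10.35 and 8.26. Epgn (Entrez 71920; mm9 chromosome 5, 91456490 to 91464241), the EGF receptor ligand epigen, had 7.77, 7.78, 9.69 and 7.66. In each, replicate 3 was high. Replicates 1, 2 and 4 lay together in Sprr1a and Epgn, but ran from 7.43 to 8.04 in Krt16. Sh2d5 (Entrez 230863; mm9 chromosome 4, 137806318 to 137817247), an SH2 domain adaptor gene, had 6.28, 6.27, 9.34 and 6.23, the second largest range.

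The same pool was highest for Krt17, another wound keratin, with 8.24, 7.85, 9.83 and 8.29, and for Ivl, involucrin, with 7.80, 7.74, 9.05 and 7.78. Fosl1, a subunit of AP-1, had 5.27, 5.33, 6.54 and 5.29, and 68.1% of its exon bases overlap exons of Ccdc85b on the other strand. Mthfd2, a mitochondrial one-carbon enzyme gene, had 7.74, 7.59, 9.36 and 7.91 and Asns, asparagine synthetase, 8.93, 8.95, 10.25 and 9.21. Hmga2, a chromatin protein gene, Scg2, a granin gene, and Bcl3, an NF-kB cofactor gene, were likewise highest in replicate 3. Of the 20 genes with the largest SD at a mean of 5 or more, 18 had replicate 3 highest.

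**Figure D3:**
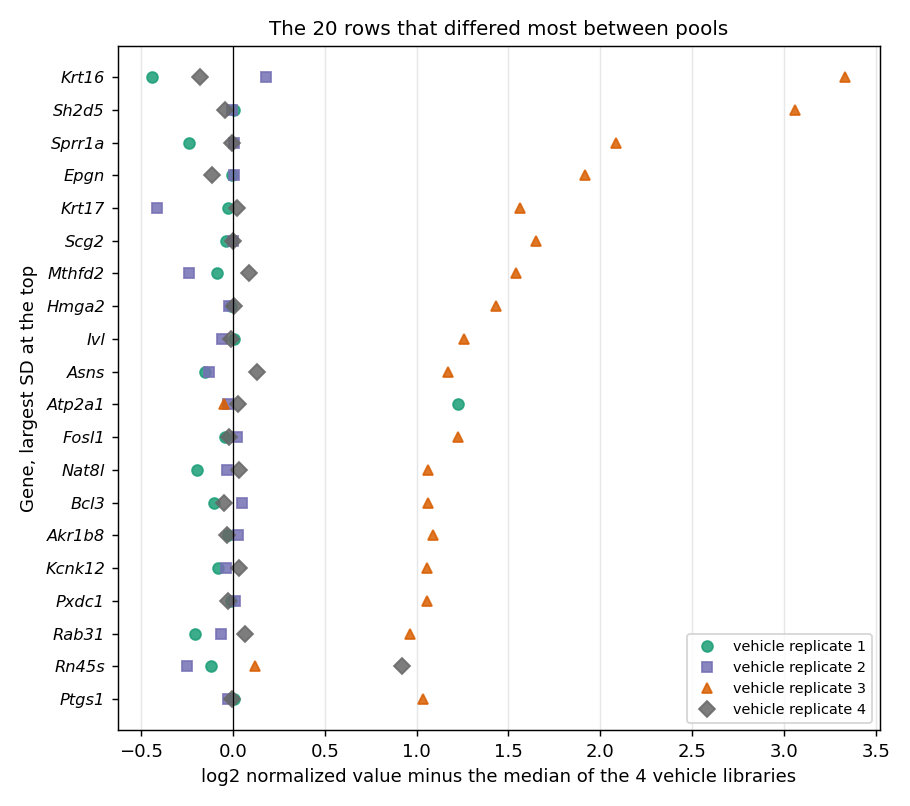
Difference of each vehicle library from the median of the 4 libraries (horizontal axis, log2 units) for the 20 rows with the largest SD at a mean of at least 5. Replicate 3 (orange triangles) lies to the right in 18 rows, replicate 1 in Atp2a1 and replicate 4 in Rn45s.

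Lists moved by pool in the same way. Replicate 3 was the highest pool for 10 of 14 basal epithelium genes, against 28.9% of all 14711 rows, with a median of 0.38 over the mean of the other 3. The laminin genes Lama3 and Lamb3, whose products anchor basal cells, were high in replicate 3 together: Lama3 had 12.70, 12.60, 13.27 and 12.59 and Lamb3 11.49, 11.46, 12.19 and 11.45. Wound-response genes had replicate 3 highest in 10 of 13, with a median of 0.13, and immediate-early genes in 7 of 12, with a median of 0.16. The wound-response list holds Krt16, Krt17 and Sprr1a, already described as high in replicate 3. As lists were chosen with earlier results of these data known, its count is no separate support. Fos itself had 10.94, 11.14, 11.14 and 11.01, whereas Jun had 11.35, 11.27, 11.70 and 11.31. Pigment genes had replicate 3 highest in 6 of 7 by a median of 0.09. The differentiated epithelium, keratocyte, collagen and corneal endothelium lists differed by 0.05 or less from the other pools in any pool, as rounded. Replicate 3 was still highest for 9 of 17 differentiated epithelium genes, against 28.9% of all 14711 rows. It was also highest for 12 of 20 junction genes, with a median of 0.06. The counts were 2 of 17 for keratocyte, 0 of 14 for collagen and 3 of 17 for corneal endothelium genes.

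Replicate 1 was highest in muscle, retina and dendritic cell genes. Atp2a1 (Entrez 11937; mm9 chromosome 7, 133589372 to 133606622), the calcium pump of fast muscle, had 7.04, 5.79, 5.76 and 5.84. Myh4, a fast myosin heavy chain gene, had 4.37, 3.02, 3.01 and 3.01. Of 6 muscle genes at 3 or over 5 were highest in replicate 1, by a median of 0.40, against 25.3% of all rows. Gnat1, rod transducin, had 6.86, 6.41, 6.19 and 6.50, and 8 of 9 retina genes were highest in replicate 1, by a median of 0.13. Dendritic cell genes had replicate 1 highest in 5 of 8, by a median of 0.11. In replicate 4 Rn45s, the ribosomal RNA precursor, had 16.02 where replicates 1 to 3 had 14.98, 14.85 and 15.22, and Lars2, a mitochondrial tRNA synthetase gene named here after its values were seen, had 13.84 against 12.91, 12.73 and 13.12. Replicate 4 is also the pool with the highest vessel genes. The part of ribosomal RNA carry-over or of attached tissue in these differences was not tested.

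**Figure D4:**
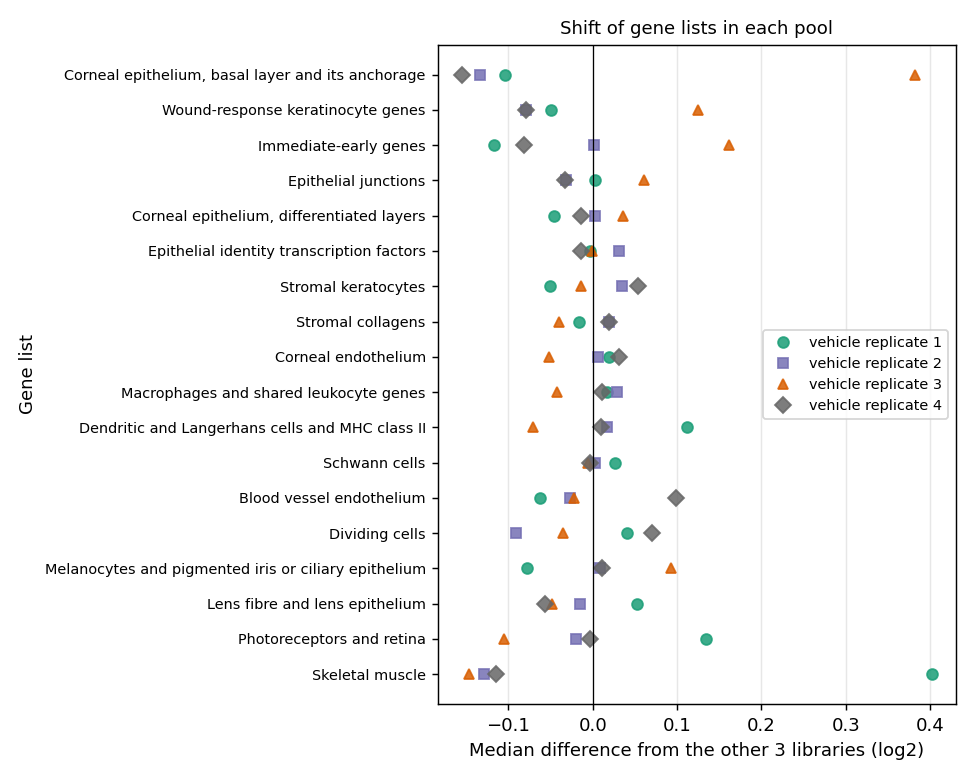
Median over the members of each gene list of the difference between a library and the mean of the other 3 (horizontal axis, log2 units), for members with a mean of at least 3. Replicate 3 lies 0.38 to the right for basal epithelium, replicate 1 lies 0.40 to the right for skeletal muscle, and the stromal and corneal endothelial lists stay near 0.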

How the data were processed

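Total RNA of pooled whole corneas was sequenced as paired-end reads, per the labels. Bowtie2, HTSeq and DESeq2 were used with build mm9, per the submitters' processing notes (versions, gene annotation, strand setting and transformation: not given in the sources used here). In units, the authors' single table gives normalized expression on a log2 scale. The 4 vehicle columns were used as deposited, with samples grouped by their treatment label, and the other columns were not used. The gene lists and named genes were chosen with earlier results of these data known. Named genes are the 25 highest rows, the 15 highest per kb at a mean of at least 7, the 20 largest SDs at a mean of at least 5, the 8 smallest SDs at a mean of at least 10, and of each list its 3 defining and 4 highest genes; other members complete a count, and some genes the rule takes up are not reported here. With a single group there is no test, and errors are SDs over 4 libraries. Counts of genes by level are given beside the share of all 24918 rows. Counts by spread, isolated pool or highest pool are given beside the 14711 rows that averaged 3 or more. A band below 0 was added to the planned bands. A pool was called isolated by Dixon's ratio of its gap to the range, at the 95% critical value, and this rule was tested on simulated data. Alternatives were quantile normalization, median centring, other filters, a pseudocount of 8 or a subtracted 1, the longest transcript as length, and leaving out each pool. Coordinates and exon lengths came by symbol from GENCODE vM1 (mm9), with a length for 516 of 525 described genes. Near-identical copies were found with minimap2 2.31 against mm9 at 97% identity over 200 bases. Exon overlaps were read from the same annotation: 88 of 517 described genes overlap another gene and 5 do so over at least 50% of their exon bases. Other steps used Python 3.11.15, NumPy 2.4.6, pandas 2.3.3 and matplotlib 3.10.9.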

Additional observations from a re-analysis of the deposited data

Results flagged for a closer look

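Of 210 named genes with a mean of at least 3, 28 had 1 pool far from the other 3, where chance gives about 1 in 20, or 10.5, since the gap of that pool to its neighbour took up a large share of the gene's whole range. Over all 14711 rows the share was 6.7%. The pool was replicate 3 and highest in 20 of the 28, against 387 of the 986 rows with an isolated pool among all 14711. Named genes include the 20 chosen for a large SD between these same pools, so the count of 28 cannot be read against chance. The ratio of gap to range was 0.984 for Sh2d5, 0.980 for Hmga2, 0.977 for Scg2, 0.969 for Ptgs1, a cyclooxygenase gene, 0.966 for Pxdc1 and 0.954 for Cdh1. It was 0.952 for Fosl1, 0.951 for Ivl, 0.946 for Akr1b8, an aldo-keto reductase gene, 0.941 for Epgn and 0.940 for Il1a. It was 0.914 for Eif4ebp2, a translation repressor gene, 0.899 for Kcnk12, 0.896 for Klf5, 0.895 for Sprr1a and 0.874 for Emp1. It was 0.871 for Bcl3, 0.840 for Pkp1, 0.836 for Krt16 and 0.834 for Jun.

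In Eif4ebp2, Klf5 and Emp1 the whole range was small: Klf5 had 12.51, 12.50, 12.55 and 12.51. Replicate 3 was lowest in 3 genes: Csf1r with a ratio of 0.961, Amy1, an amylase gene, with 0.942 and Muc15 with 0.856. Replicate 1 was highest in 4 genes: Atp2a1 with 0.939, Tnnt3, a fast troponin gene, with 0.916, Hsd11b1 with 0.835 and Myh2 with 0.832. Replicate 4 was highest in Crybb3, a lens crystallin gene, with 0.833.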

How the results depend on the processing

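In all, 55 values and counts were recomputed under the alternatives, giving 345 values, of which 333 stayed within a set margin and 12 did not. The margin was 1 SD for levels and shares, 1.5 times for counts and a narrower share of the value for the median SD. Much of this stability was fixed in advance. Leaving out 1 of 4 pools cannot move the mean level of a list by 1 SD, and median centring leaves every mean level unchanged. Quantile normalization and median centring moved none of the 55. Without any filter except on rows listed at 0, rows with 1 isolated pool numbered 2260 and those with replicate 3 isolated and highest 720, the median log2 value of all rows was 7.58 and the median SD 0.0362; with a filter at 5 the median log2 value was 9.26. With the longest transcript as length, the per-kb medians were 4.77 for blood vessel, 14.60 for differentiated epithelium, 5.93 for macrophage and 5.33 for Schwann genes. Leaving out each pool in turn gave a median SD of 0.0381 to 0.0472, 20 to 133 rows with a range of at least 0.5 and 4 to 26 rows with a range of at least 1, each lowest without replicate 3. No paired analysis was possible because a single group was described and no test was made. Depth per library is unknown, so values at 0 or near the floor do not show that a gene is absent.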

Other observations

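Gene groups not described above fill in the resting profile. Ltf, the iron-binding protein lactoferrin, had a log2 value of 9.49 ± 0.03 (SD, n = 4), and Amy1, a salivary and lacrimal amylase gene with 32.7% of its exon bases shared with Rnpc3, had 7.89 ± 0.09. The adipocyte genes Adipoq and Plin1 stood at -2.39 and -1.95, at the floor. Among receptor ligands of epithelial growth Hbegf had 11.64 ± 0.10, Ereg 9.83 ± 0.09 and Areg 6.84 ± 0.14. The alarm calgranulin genes were uneven, with S100a9 at 5.68 ± 0.08 and S100a8 at 1.06. The small proline-rich genes Sprr1b and Sprr2d stood at -0.58 and 0.15, at the floor, although Sprr1a had 8.72 ± 1.09.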
